A study of Rattus norvegicus with 12 samples.

Results

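In the rat prostate, 91 named genes were raised by partial obstruction of the bladder outlet and still lay above the sham level after treatment with Eviprostat, a plant-based preparation used for benign prostatic hyperplasia. They were chosen from 15637 named genes on an Agilent two-colour array. For each array gene name the brightest probe was taken, and the mean log2 ratio of the scanner's processed Cy5 over Cy3 signals was compared between groups. A member had obstruction/vehicle at least 1 above sham/vehicle, obstruction/Eviprostat at least 0.7 above sham/vehicle and sham/Eviprostat within 0.5 of sham/vehicle, with Cy5 well above background on all 6 obstruction arrays. A further 31 array gene names met the same values but had no gene name and are not described. On these values 731 named genes met the conditions for obstruction, sham/Eviprostat and brightness, and the 91 members are 12.4% of them. The other 640 lay below 0.7 with Eviprostat. The median of the 731 was 1.54 with obstruction/vehicle and 0.21 with obstruction/Eviprostat, both as differences from sham/vehicle.

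The study compared 4 groups of male rats aged 10 weeks, each of 5 or 6 animals, with 3 arrays a group. Both sham groups had a sham operation, and dosing with vehicle (0.1% Tween 80) or Eviprostat began 5 days later. In both obstruction groups a rubber ring was tied around the urethra next to the bladder, and dosing with vehicle or Eviprostat began the next day, so the operation and the time since surgery were not separated. Eviprostat was given at 18 mg/kg, 36 mg/kg in a day, in 2 doses a day for 5 days, and the prostate was taken 2 h after the last dose. Each array set Cy5-labelled RNA of its group against Cy3-labelled sham/vehicle RNA, with no dye swap. The labels call the arrays biological replicates, but the labelling protocol names pooled tissue of a group, so the p-values here reflect how far arrays of one group lie apart, and nothing of how animals differ. For labelling, 1500 ng of sham/vehicle RNA and 300 ng of RNA of each other group were used. Each of 3 slides held 4 arrays, 1 of each group, and slide 1, which holds replicate 1, was scanned on another day. Cy5 was well above background at 70.9% to 88.4% of spots, and median Cy5 signal was 401 to 416 on the arrays of slide 1 and 576 to 677 on those of slides 2 and 3. All 10 luminal markers of the prostate that were fixed as a check, among them Pbsn (probasin), were measured. In bulk tissue, fewer cells of a type and less RNA per cell cannot be told apart.

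An injured or obstructed tissue answers with several gene programs at once. Damaged epithelium and resident macrophages release chemokines that call in leukocytes, and decoy receptors and receptor antagonists limit interleukin-1 signalling. Fibroblasts lay down and crosslink matrix under control of TGF-beta, which is held in the matrix by some latent TGF-beta binding proteins. Matricellular proteins of the CCN family are rapid targets of the YAP and TAZ coactivators, which act through TEAD factors when cells are stretched, and TIMP proteins block the proteinases that take matrix apart.

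Sequences of 5 promoters are given first because they set 3 members that kept much of their rise (Il1rn, Timp1 and Ccn2) beside 2 chemokine genes that kept almost none (Cxcl1 and Cxcl2). They are the 250 bases before the RefSeq start on rat build GRCr8, written 5′ to 3′ along the gene. Capitals mark matches, on either strand, to the letters of a motif.
Il1rn promoter, chr3:27520072-27520321, plus strand: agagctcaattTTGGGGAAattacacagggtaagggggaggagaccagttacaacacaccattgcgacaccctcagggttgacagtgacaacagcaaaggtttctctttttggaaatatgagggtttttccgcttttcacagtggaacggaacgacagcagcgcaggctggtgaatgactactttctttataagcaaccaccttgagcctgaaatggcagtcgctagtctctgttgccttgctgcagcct
Timp1 promoter, chrX:3771123-3771372, minus strand: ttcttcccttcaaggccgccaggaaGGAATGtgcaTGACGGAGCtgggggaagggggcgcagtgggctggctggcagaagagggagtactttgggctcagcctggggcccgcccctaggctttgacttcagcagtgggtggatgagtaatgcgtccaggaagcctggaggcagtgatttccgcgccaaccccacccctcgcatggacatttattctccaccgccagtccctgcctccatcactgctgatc
Ccn2 promoter, chr1:22624615-22624864, minus strand: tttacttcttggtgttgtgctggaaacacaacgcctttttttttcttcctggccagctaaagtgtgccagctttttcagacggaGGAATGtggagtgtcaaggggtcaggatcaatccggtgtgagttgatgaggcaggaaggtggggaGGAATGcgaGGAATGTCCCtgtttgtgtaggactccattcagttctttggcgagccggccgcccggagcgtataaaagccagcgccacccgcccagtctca
Cxcl1 promoter, chr14:17479322-17479571, minus strand: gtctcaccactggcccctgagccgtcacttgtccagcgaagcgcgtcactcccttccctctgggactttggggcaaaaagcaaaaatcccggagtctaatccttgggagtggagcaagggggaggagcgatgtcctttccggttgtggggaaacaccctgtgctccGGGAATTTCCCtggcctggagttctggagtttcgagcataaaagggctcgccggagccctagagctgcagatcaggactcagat
Cxcl2 promoter, chr14:17467256-17467505, minus strand: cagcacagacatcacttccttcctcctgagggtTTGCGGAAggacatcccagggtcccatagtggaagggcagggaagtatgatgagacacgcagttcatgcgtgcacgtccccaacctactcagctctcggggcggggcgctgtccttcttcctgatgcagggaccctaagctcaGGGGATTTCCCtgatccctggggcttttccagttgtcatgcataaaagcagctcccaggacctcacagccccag

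The motifs searched were AP-1 (TGANTCA), TEAD (GGAATG), STAT (TTCNNNGAA), the antioxidant element (TGACNNNGC), C/EBP (TTGNGNAA) and NF-kB by its consensus of 10 letters. Ccn2 held 3 TEAD matches, and 1 of them overlapped its NF-kB match. Timp1 held a TEAD match and an antioxidant match. Il1rn and the chemokine gene Cxcl2 each held a C/EBP match. Both chemokine promoters held the NF-kB letters on both strands of 1 place, starting 84 and 83 bases before the start in Cxcl1 and 74 and 73 bases before it in Cxcl2. Promoters were found for 64 of the 91 members. A single promoter, the first listed, was taken for each of them, while the 33365 promoters include every distinct one of a gene. The percentages are thus per gene for members and per promoter for the rest. The TEAD letters were in 13 of these 64 (20.3%) and in 12.1% of 33365 promoters, the AP-1 letters in 8 (12.5%) and 6.35%, the NF-kB letters in 9 (14.1%) and 6.34%, the C/EBP letters in 11 (17.2%) and 11.7%, the STAT letters in 6 (9.38%) and 7.68%, and the antioxidant letters in 6 (9.38%) and 10.1%. A match describes letters only and is no evidence of binding.

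**Figure D1:**
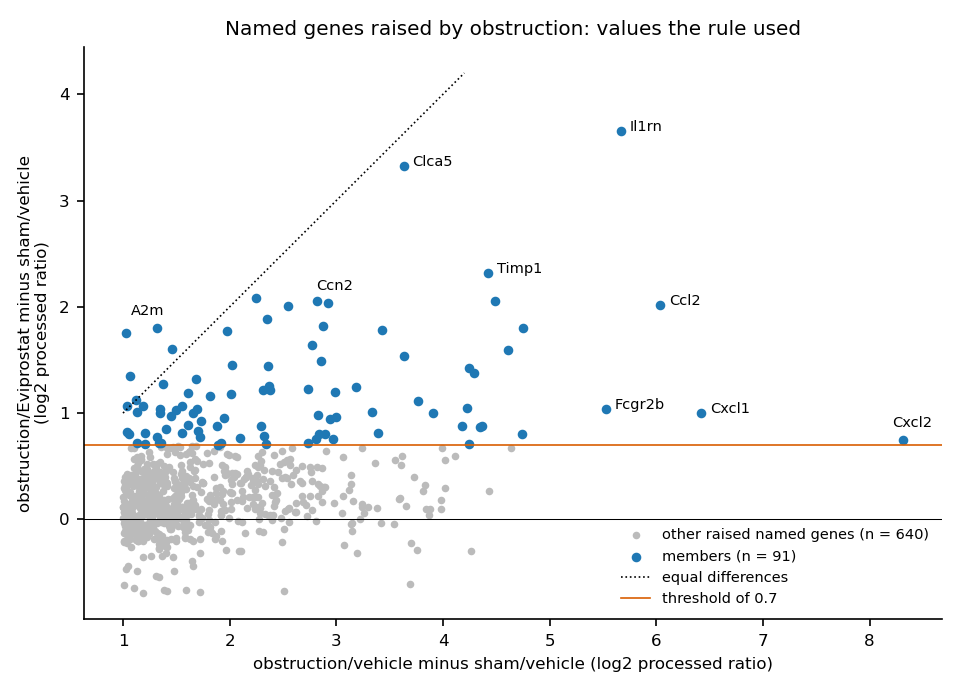
Differences from sham/vehicle in the log2 processed ratio for 731 named genes, with obstruction/vehicle on the horizontal and obstruction/Eviprostat on the vertical axis. Blue points are the 91 members and grey points the other 640 genes, the orange line is the 0.7 threshold and the dotted line marks equal differences. Il1rn and Clca5 lie highest, and Cxcl2 lies farthest right, close to the threshold.

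Here, on the values that chose the members, Il1rn lay 5.67 above sham/vehicle with obstruction/vehicle and 3.65 with obstruction/Eviprostat. Cxcl2 lay 8.31 above and then 0.75 above. Members near the threshold were Mmp23 at 0.70 and Fgl2 at 0.71, and the genes just outside it were Trem2 at 0.69, C1qb at 0.69 and C1qa at 0.69, a macrophage receptor and 2 chains of complement C1q, of which the other chain, C1qc, is a member. The members so range from genes as high with Eviprostat as without it to genes almost back at the sham level. From here on, values are log2 ratios after background correction with an offset of 50 and loess normalization, the scale of the statistical test, on which dim probes give smaller differences: 53 of the 91 members lay at least 0.7 above sham/vehicle with Eviprostat on it, and 79 lay at least 1 above with obstruction/vehicle.

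Most members were lower with Eviprostat than without it in obstructed rats, so that they stayed high against sham but not against untreated obstruction. With limma over all 36083 kept probes and Benjamini-Hochberg adjustment, 70 of the 91 members were lower in obstruction/Eviprostat than in obstruction/vehicle at adjusted p under 0.05, 1 was higher and 20 did not pass. Over all probes 11.7% were lower and 7.2% higher. The rule put a floor under both group means and no limit on their difference, but the lower floor for Eviprostat leaves more room for lower than for higher values. The rule also chose genes for a high obstruction/vehicle mean on these same arrays, which favours a negative difference. The calls of members are therefore a description. They were not counted against the 731 raised named genes. The median of those genes above sham/vehicle was 1.54 without and 0.21 with Eviprostat on the processed ratio. The median difference between the obstructed groups was -0.996 over the members, where the median over all probes was 0.00785. With every spot in the background fit, the setting that would follow from the tool's default, 41 members were called, all lower, against 5.9% of probes lower and 3.91% higher in that fit. With the replicate number, which is the slide, as a block, 82 members were lower and 1 was higher, against 19.6% and 16.9% of probes. The share of higher among the called probes was 38.0% in this fit, 16.2% with median centring and 57.9% with the scanner's processed ratio, so the split over all probes depends on the scaling. The difference was negative on all 3 slides in 82 members and positive on all 3 in 3. The matching shares of all probes were not counted. Under a stricter condition, obstructed groups whose arrays do not overlap, 18.3% of probes were lower and 16.5% higher.

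The part of the rise that remained differed widely among the members. Taken as obstruction/Eviprostat minus sham/vehicle over obstruction/vehicle minus sham/vehicle, both on the log2 scale, it had a median of 39.3%. It was under 25% in 25 members, 25 to 50% in 30, 50 to 75% in 28 and at least 75% in 8. The 3 obstruction/Eviprostat arrays all lay above the 3 sham/vehicle arrays in 75 members, and in 8.7% of all probes, a comparison that the rule had used. Arrays of the obstructed groups did not overlap in 77 members, in 75 with Eviprostat lower and in 2 with it higher, against 18.3% and 16.5% of probes. Both differences are those on which the rule set its thresholds, so a member with a small rise had to keep a large share, and the shares are a description.

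**Figure D2:**
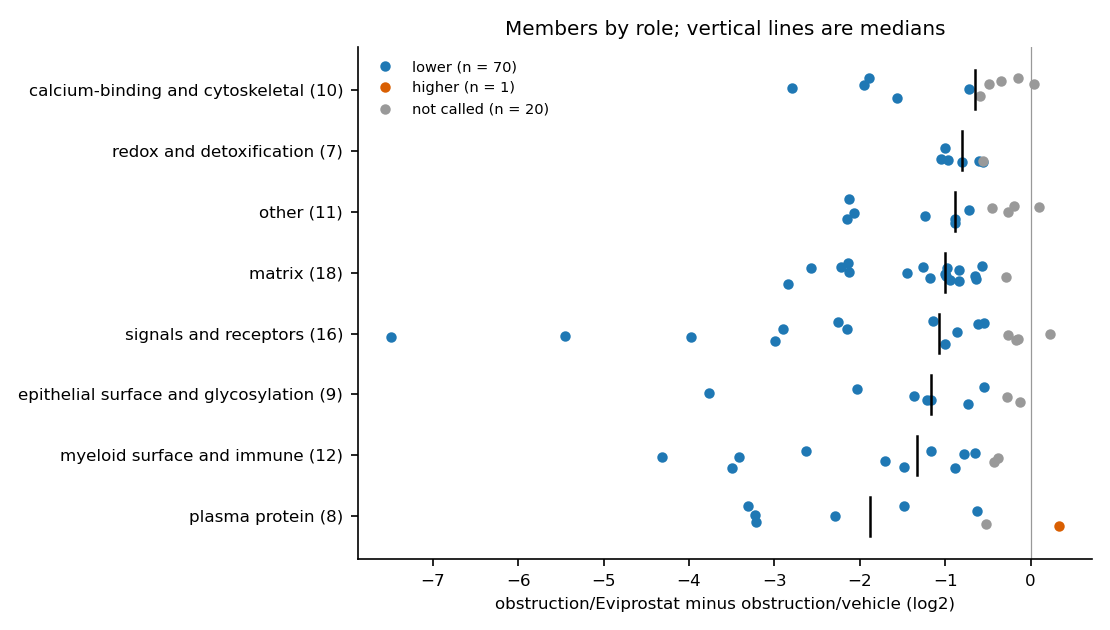
Obstruction/Eviprostat minus obstruction/vehicle (log2) for each of the 91 members, grouped by role (assigned from general knowledge after the members were known) with the number of members in parentheses. Blue points passed limma at adjusted p under 0.05 as lower (70), orange as higher (1) and grey did not pass (20), vertical lines are medians, and heights within a row are spread only for legibility. The single orange point is A2m, and the 2 points farthest left are Cxcl2 and Cxcl1.

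Among the signals, the interleukin-1 receptor antagonist gene Il1rn, which encodes a decoy that occupies the interleukin-1 receptor without activating it, was the member farthest above sham/vehicle with Eviprostat. Il1rn read 0.15, -0.12 and -0.043 on the sham/vehicle arrays, 0.37, -0.063 and -0.014 with sham/Eviprostat, 5.80, 5.57 and 5.47 with obstruction/vehicle and 3.83, 3.09 and 3.14 with obstruction/Eviprostat (array design position chr3:2613130-2613189, rat build rn3). The 4 groups fell into 3 levels with no overlap between sham, treated obstruction and untreated obstruction. Obstruction alone lay 49.2-fold and obstruction with Eviprostat 10.3-fold above sham/vehicle, and between the obstructed groups there was a difference of -2.26 ± 0.19 (SE; limma adjusted p = 2.63e-06). Another kept probe of Il1rn gave 2.24 and 0.59 for the same differences from sham/vehicle, so the probes disagreed in size.

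The neutrophil chemokine genes Cxcl1 and Cxcl2, neighbours on chromosome 14 with 13173 bases between their probes, had the largest falls. Cxcl2 read -0.18, 0.091 and 0.066 on the sham/vehicle arrays, -0.10, 0.21 and 0.29 with sham/Eviprostat, 7.49, 8.19 and 7.73 with obstruction/vehicle and 0.30, 0.32 and 0.32 with obstruction/Eviprostat. All treated arrays lay above the sham arrays, and untreated obstruction was far above both. Cxcl2 kept 4.12% of its rise of 7.81, with a difference of -7.49 ± 0.16 (SE; limma adjusted p = 2.85e-11). Cxcl1 read -0.18, -0.05 and -0.0056 on the sham/vehicle arrays, 0.021, -0.28 and 0.017 with sham/Eviprostat, 5.59, 5.60 and 5.45 with obstruction/vehicle and 0.22, 0.014 and 0.044 with obstruction/Eviprostat. The treated arrays of Cxcl1 all lay above the sham/vehicle arrays, but none was above 0.22, and the difference was -5.46 ± 0.11 (SE; limma adjusted p = 1.52e-11). Both genes are members because the processed ratio, which has no offset, gave 1.00 for Cxcl1 and 0.75 for Cxcl2.

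Ccl2, the main monocyte chemokine, kept more. Ccl2 read -0.007, 0.129 and 0.103 on the sham/vehicle arrays, 0.053, 0.248 and 0.263 with sham/Eviprostat, 4.758, 4.976 and 4.946 with obstruction/vehicle and 0.590, 1.054 and 1.103 with obstruction/Eviprostat. All 3 treated arrays lay above every sham array and far below untreated obstruction, with a difference of -3.98 ± 0.13 (SE; limma adjusted p = 8.65e-10) and 17.5% of the rise kept. Ccl6, a chemokine of myeloid cells, lay 3.90 and 0.99 above sham/vehicle without and with Eviprostat, and differed by -2.90 between the obstructed groups (limma adjusted p = 1.99e-08). Ccr1, a chemokine receptor of monocytes and neutrophils, lay 3.26 and 0.27 above sham/vehicle and fell by 3.00 with Eviprostat (limma adjusted p = 2.11e-08), and its treated arrays overlapped the sham/vehicle arrays.

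Tnfrsf12a, the receptor for the cytokine TWEAK, kept 49.2% of a rise of 2.25 and was lower with Eviprostat by 1.14 (limma adjusted p = 0.00612). The stress-induced TGF-beta family member Gdf15 kept 63.4% of 1.49. Its difference of -0.54 passed (limma adjusted p = 0.0173). With limma the call was lost when one array was left out, namely obstruction/vehicle replicate 2 (limma adjusted p = 0.0732) or 3 (limma adjusted p = 0.0805) or obstruction/Eviprostat replicate 1 (limma adjusted p = 0.0556) or 3 (limma adjusted p = 0.0626). The growth factor gene Fgf18 lay only 0.59 and 0.32 above sham/vehicle on this scale and did not pass (limma adjusted p = 0.192, and 0.0251 with the slide block). Of the 16 signals and receptors, 12 were lower and 4 did not pass. Of all 91 members 70 were lower, and of all probes 11.7%. Roles were assigned after the members were known, so counts by role are a description.

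**Figure D3:**
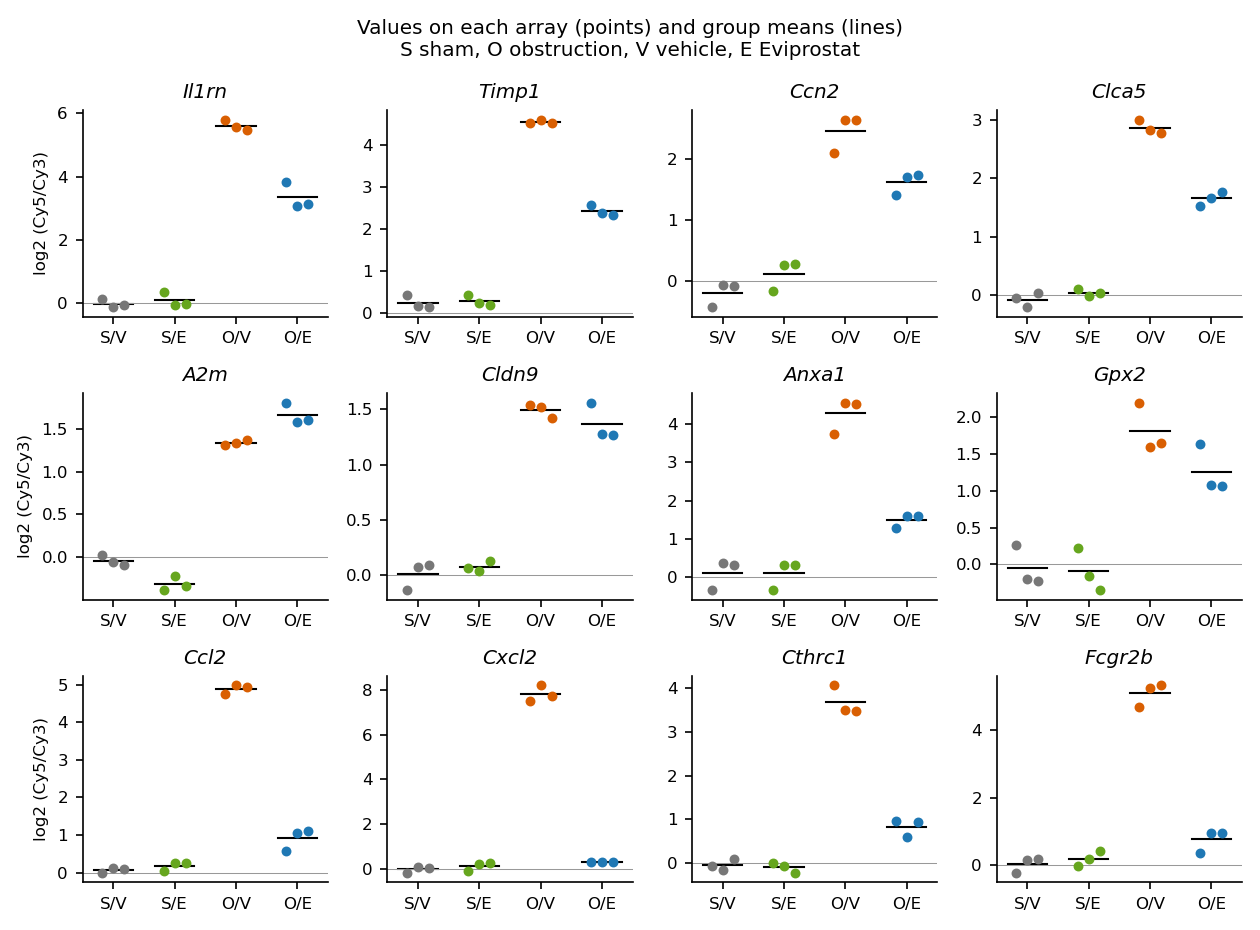
Log2 ratio of Cy5 over Cy3 after normexp and loess for 12 members, one panel a gene, on each of the 12 arrays (points, replicates 1 to 3 from left to right) with group means (lines). S is sham, O obstruction, V vehicle and E Eviprostat, and the vertical axes differ between panels. Treated obstruction lies between sham and untreated obstruction in most panels, above untreated obstruction in A2m, and near sham in Cxcl2.

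Matrix genes were the largest group of members. Timp1, an inhibitor of matrix metalloproteinases, had the second-largest level above sham/vehicle with Eviprostat. Timp1 read 0.42, 0.16 and 0.13 on the sham/vehicle arrays, 0.42, 0.23 and 0.18 with sham/Eviprostat, 4.54, 4.61 and 4.54 with obstruction/vehicle and 2.57, 2.39 and 2.33 with obstruction/Eviprostat. The 3 arrays of each obstructed group lay close together, and the groups did not overlap. Timp1 was 20.1-fold above sham/vehicle in untreated and 4.58-fold in treated obstruction (chrX:12548256-12549259, rn3), with a difference of -2.13 ± 0.11 (SE; limma adjusted p = 3.12e-08).

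Ccn2, a matricellular protein also called connective tissue growth factor, stood next to Timp1 in level above sham/vehicle with Eviprostat. Ccn2 read -0.43, -0.066 and -0.08 on the sham/vehicle arrays, -0.16, 0.26 and 0.27 with sham/Eviprostat, 2.10, 2.65 and 2.65 with obstruction/vehicle and 1.41, 1.71 and 1.75 with obstruction/Eviprostat. Replicate 1 was the lowest array in all 4 groups, and the obstructed groups still did not overlap. It kept 68.3% of a rise of 2.66, with a difference of -0.84 ± 0.18 (SE; limma adjusted p = 0.00457). The related gene Ccn1 kept 48.1% of 1.93 and differed by -1.005 (limma adjusted p = 9.08e-05). Ltbp2, a matrix gene named for the latent TGF-beta binding proteins, kept 71.5% of 1.01. Its difference of -0.29 did not pass (limma adjusted p = 0.165, and 0.0249 with the slide block).

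The matrix members ran from a kept share of 71.5%, that of Ltbp2, down to 1.94%, that of Vcan. Cilp, a cartilage matrix protein that binds TGF-beta, kept 54.8% of 2.61, and Col8a1, a short-chain collagen of vessel walls, 49% of 1.85. Cilp was lower with Eviprostat by 1.18 (limma adjusted p = 2.19e-05). Col8a1 was lower by 0.94 (limma adjusted p = 0.0117), with overlapping arrays, and that call was lost without obstruction/vehicle replicate 2 (limma adjusted p = 0.0589) or 3 (limma adjusted p = 0.0517) or obstruction/Eviprostat replicate 1 (limma adjusted p = 0.0511) or 3 (limma adjusted p = 0.053).

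Lox, the enzyme that crosslinks collagen and elastin, kept 33% of 2.17, and the small proteoglycan Bgn (biglycan) 29% of 3.00. Cthrc1, a secreted protein of activated fibroblasts, read 4.05, 3.50 and 3.48 with obstruction/vehicle and 0.96, 0.59 and 0.94 with obstruction/Eviprostat, against -0.057, -0.15 and 0.091 in sham/vehicle. Its treated arrays lay above all sham arrays and far below the untreated ones, and it kept 23.4%. The matrix proteins Thbs2 and Vcan (versican) were near the sham level, with 0.29 and 0.051 above sham/vehicle after rises of 2.51 and 2.63. Mmp23, a membrane-bound metalloproteinase, kept 28.3% of 1.76. Of the 18 matrix members, 17 were lower with Eviprostat than without and only Ltbp2 did not pass. That count stands beside 70 of all 91 members and 11.7% of all probes, and is a description.

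Annexins and S100 proteins were prominent among calcium-binding and cytoskeletal genes. Annexins bind membranes in a calcium-dependent way, and some pair with an S100 protein, such as Anxa2 with S100a10. Anxa1 read -0.34, 0.38 and 0.31 on the sham/vehicle arrays, -0.33, 0.30 and 0.31 with sham/Eviprostat, 3.74, 4.56 and 4.54 with obstruction/vehicle and 1.30, 1.59 and 1.58 with obstruction/Eviprostat. Anxa1 (annexin A1, known for limiting leukocyte entry) was low in replicate 1 of every group, yet the treated obstruction arrays lay above all sham arrays and below all untreated ones, with a difference of -2.79 ± 0.25 (SE; limma adjusted p = 5.84e-06). Anxa2 kept 43.7% of 2.77, S100a4 39% of 3.10 and S100a6 33% of 2.91, and all 3 were lower with Eviprostat (limma adjusted p = 2.22e-05, 9.29e-07 and 6.65e-08). S100a4 and S100a6 are neighbours, with 9411 bases between their probes on rn3 chromosome 2.

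S100a10 kept 84.3% of a rise of 0.95, and its difference of -0.15 ± 0.14 (SE) did not pass (limma adjusted p = 0.54). Tnnt2, cardiac troponin T, differed little in mean between the obstructed groups, with a wide spread among the untreated arrays. Tnnt2 read -0.45, 0.0017 and -0.038 on the sham/vehicle arrays, -0.25, -0.029 and -0.045 with sham/Eviprostat, 0.89, 1.66 and 1.47 with obstruction/vehicle and 1.27, 1.45 and 1.42 with obstruction/Eviprostat. The obstructed groups overlapped, and the difference was 0.034 ± 0.18 (SE; limma adjusted p = 0.937), which turned negative, at -0.19, without obstruction/vehicle replicate 1 (limma adjusted p = 0.432). Emp1, a small membrane protein of epithelia, kept 58.6% of 1.43 and did not pass (limma adjusted p = 0.194, and 2.42e-05 with the slide block), while Lgals1 (galectin-1, a sugar-binding protein) kept 52.7% and was lower (limma adjusted p = 9.93e-04). Of these 10 genes, 5 were lower and 5 did not pass, where 11.7% of all probes were lower.

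The redox and detoxification genes kept between 32.3% and 70.4% of their rises. Gpx2, the glutathione peroxidase of epithelia, stood highest. Gpx2 read 0.26, -0.20 and -0.23 on the sham/vehicle arrays, 0.22, -0.16 and -0.35 with sham/Eviprostat, 2.20, 1.59 and 1.65 with obstruction/vehicle and 1.64, 1.08 and 1.06 with obstruction/Eviprostat. Replicate 1 was the highest array in every group, and the obstructed groups overlapped. Gpx2 differed by -0.55 ± 0.22 (SE), which did not pass (limma adjusted p = 0.102) until the slide was a block (limma adjusted p = 2.91e-05). The secreted peroxidase gene Gpx3 kept 64.5% of 1.56 and was lower by 0.55 (limma adjusted p = 0.00106). Ugt1a2, an enzyme that couples glucuronic acid to small molecules, kept 54.5% of 2.20 and was lower by 1.00 (limma adjusted p = 9.25e-04). Ugt1a transcripts share their 3′ exons, so the isoform behind this probe is uncertain.

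A2m was the only member that passed as higher with Eviprostat. It encodes alpha-2-macroglobulin, a wide-range proteinase inhibitor and in rats a strong acute-phase protein. Its probe is shown because this is the member whose call ran opposite to the others.
A2m probe: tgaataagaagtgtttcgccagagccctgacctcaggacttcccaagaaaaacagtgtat
A2m read 0.022, -0.059 and -0.10 on the sham/vehicle arrays, -0.38, -0.21 and -0.34 with sham/Eviprostat, 1.31, 1.33 and 1.36 with obstruction/vehicle and 1.81, 1.58 and 1.60 with obstruction/Eviprostat. The treated obstruction arrays lay above all untreated ones, and in sham rats the Eviprostat arrays lay below all vehicle arrays. The obstructed groups gave a difference of 0.33 ± 0.09 (SE; limma adjusted p = 0.022). The call was lost without obstruction/vehicle replicate 2 (limma adjusted p = 0.0644) or 3 (limma adjusted p = 0.0506) or obstruction/Eviprostat replicate 1 (limma adjusted p = 0.0874), and over all alternatives the limma adjusted p ran from 0.00259 to 0.857. It was lost too with median centring and with Cy5 alone (limma adjusted p = 0.857 and 0.0614). The same held with only the 6 arrays compared and with every spot in the background fit (limma adjusted p = 0.0612 and 0.0653).

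Of the other plasma protein members, 6 were lower with Eviprostat and Clu did not pass, where 11.7% of all probes were lower. Cfd, the complement protease adipsin, fell from 4.05 to 0.82 above sham/vehicle (limma adjusted p = 3.42e-08), and C1qc, a chain of complement C1q, from 1.42 to 0.79 (limma adjusted p = 0.00623). Clu (clusterin), a secreted chaperone long used as a marker of prostate regression, kept 64% of 1.47. Clu read 1.02, 0.0092 and 0.0042 on the sham/vehicle arrays, 0.42, -0.42 and -0.44 with sham/Eviprostat, 2.17, 1.66 and 1.60 with obstruction/vehicle and 1.55, 1.15 and 1.15 with obstruction/Eviprostat. Clu was highest in replicate 1 of every group, lay below vehicle in sham/Eviprostat on all 3 slides, and did not pass between the obstructed groups (limma adjusted p = 0.264, and 0.00121 with the slide block). The kininogen genes Kng1 and Kng2, named here through the probes' accessions, are both members, but their probes read nearly the same letters, which the sequences show, with the longest shared run in capitals.
Kng1 probe: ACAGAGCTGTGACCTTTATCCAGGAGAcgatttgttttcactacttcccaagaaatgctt
Kng2 probe: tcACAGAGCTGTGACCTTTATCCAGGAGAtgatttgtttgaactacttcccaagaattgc
At their best ungapped alignment the 60-base probes match at 54 of 58 positions, so the kininogens, precursors of kinin peptides, cannot be told apart here. Kng2 read 0.00039, 0.26 and 0.066 on the sham/vehicle arrays, 0.072, 0.088 and 0.067 with sham/Eviprostat, 3.43, 3.84 and 3.77 with obstruction/vehicle and 0.44, 0.43 and 0.53 with obstruction/Eviprostat. It was close to the sham level with Eviprostat and differed by -3.22 between the obstructed groups (limma adjusted p = 1.52e-09). Kng1, named for the shared probe letters, gave -3.31 (limma adjusted p = 8.40e-08).

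Of the 12 myeloid and immune members, 10 were lower with Eviprostat and 2 did not pass, where 11.7% of all probes were lower. Fcgr2b, an inhibitory receptor for the constant part of IgG, fell furthest. Fcgr2b read -0.23, 0.16 and 0.19 on the sham/vehicle arrays, -0.029, 0.18 and 0.41 with sham/Eviprostat, 4.69, 5.24 and 5.31 with obstruction/vehicle and 0.37, 0.97 and 0.95 with obstruction/Eviprostat. All treated arrays lay above the sham/vehicle arrays, although replicate 1 was below the highest sham/Eviprostat array, with a difference of -4.32 ± 0.20 (SE; limma adjusted p = 1.98e-08). The activating receptor gene Fcgr2a, 89383 bases away on rn3 chromosome 13, kept 21.2% of 4.33 (limma adjusted p = 2.03e-06), and its treated arrays overlapped the sham/vehicle arrays. Slfn4, a Schlafen gene of myeloid cells, kept 14.9% of 3.09 (limma adjusted p = 2.11e-08). The macrophage scavenger and mannose receptors Cd163 and Mrc1 lay 0.26 and 0.58 above sham/vehicle with Eviprostat, after 1.14 and 2.28 without it, and the treated arrays of Cd163 overlapped the sham arrays (limma adjusted p = 0.00422 and 1.11e-06). Fgl2, a fibrinogen-like protein of macrophages and T cells, kept 53% of 0.82 and did not pass (limma adjusted p = 0.21, and 0.0131 with the slide block).

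Of 9 members of the epithelial surface and glycosylation, 7 were lower and 2 did not pass, where 11.7% of all probes were lower. Clca5, a member of the secreted CLCA family that the array design calls Clca2, was among the highest. Clca5 read -0.052, -0.20 and 0.034 on the sham/vehicle arrays, 0.10, -0.0069 and 0.039 with sham/Eviprostat, 3.00, 2.82 and 2.77 with obstruction/vehicle and 1.53, 1.67 and 1.77 with obstruction/Eviprostat. All treated arrays lay above 1.5 and all untreated obstruction arrays above 2.7, with a difference of -1.21 ± 0.10 (SE; limma adjusted p = 2.69e-06). On the processed ratio the difference was -0.302 and did not pass (limma adjusted p = 0.291), and another kept Clca5 probe showed 0.0016 and -0.049 above sham/vehicle in the obstructed groups, so this gene is uncertain. Cldn9, a claudin of tight junctions, read 1.54, 1.52 and 1.42 without and 1.56, 1.27 and 1.27 with Eviprostat, against -0.13, 0.076 and 0.091 in sham/vehicle. The obstructed groups overlapped and the difference of -0.12 ± 0.10 (SE) did not pass (limma adjusted p = 0.485). Its probe lies 7158 bases from that of Tnfrsf12a on rn3 chromosome 10. Msln (mesothelin) kept 28% of 2.82 and was lower (limma adjusted p = 1.45e-07). Among the 11 remaining members, Rasd1, a small GTPase gene induced by glucocorticoids, kept 69.7% of 2.37 and was lower by 0.72 (limma adjusted p = 0.00108), although another kept probe showed only 0.17 and 0.11 above sham/vehicle.

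Calls of other named members were lost under a change of processing. With median centring Ccn2, Gdf15, Cilp, Ugt1a2, Gpx3, S100a6, Lgals1, C1qc, Rasd1 and Cd163 did not pass, at limma adjusted p between 0.0512 for S100a6 and 0.682 for Lgals1. With every spot in the background fit Ccn2, Clca5, Rasd1, Ugt1a2, Tnfrsf12a, Gpx3, Ccn1, Col8a1, Gdf15 and Cd163 did not pass, at limma adjusted p between 0.118 for Ugt1a2 and 0.459 for Gdf15. With Cy5 alone Rasd1, Tnfrsf12a and Cd163 did not pass (limma adjusted p = 0.0533, 0.0644 and 0.0756). On the processed ratio Gdf15 and Col8a1 did not pass (limma adjusted p = 0.101 and 0.157). These lost calls kept their direction. Other members gained a call as lower. Without obstruction/vehicle replicate 1, S100a10 differed by -0.33 (limma adjusted p = 0.0474) and Fgl2 by -0.62 (limma adjusted p = 0.0145), and without obstruction/Eviprostat replicate 1 Gpx2 passed (limma adjusted p = 0.0367). With slides 2 and 3 alone S100a10 and Cldn9 passed (limma adjusted p = 0.00765 and 0.0282), with differences of -0.23 and -0.20.

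A second look at the same genes came from 33 other kept probes of 30 members. Obstruction/vehicle lay above sham/vehicle for 32 of these probes, and by at least 1 for 17. With Eviprostat 31 lay above sham/vehicle, with a median of 0.25, and 5 by at least 0.7, which were probes of Anxa1, S100a4, S100a6, Ugt1a2 and B4galt1. For 25 of the 30 members no other probe reached 0.7. Without and with Eviprostat, another probe lay 0.62 and 0.086 above sham/vehicle for Ccn1 and 0.15 and 0.051 for Emp1. For Mrc1 the values were 0.94 and 0.017. S100a4 had a further probe at 0.40 and 0.090, besides the one that reached 0.7. The shares kept by these genes therefore depend on the probe.

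The members can be set beside all measured genes of the pathways they belong to. Of 34 measured genes of matrix structure, 6 are members, 28 were lower in obstruction/Eviprostat than in obstruction/vehicle and none was higher. The list's median difference from sham/vehicle was 1.51 without and 0.25 with Eviprostat in obstructed rats, and 0.23 with sham/Eviprostat. Its genes of largest rise outside the members, Col1a1, Col3a1 and Fn1, lay 0.59, 0.57 and 0.39 above sham/vehicle with Eviprostat after 3.16, 2.72 and 2.71 without. In the chemokine list 4 of 29 genes are members, 17 were lower and 3 higher, and Cxcl3, Ccl3 and Ccl7 lay 0.076, 0.20 and 0.25 above sham/vehicle with Eviprostat and 3.98, 3.13 and 2.70 without. Of 34 cytokines and receptors 2 are members and 19 were lower, and Il1b lay 3.76 above sham/vehicle without Eviprostat and at -0.0019 with it, where its antagonist Il1rn lay at 5.62 and 3.36. In the TGF-beta list 4 of 27 genes are members, 14 were lower and 1 higher.

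In the lists of hypoxia and glycolysis (28 measured), lysosome and phagocytosis (24), immediate early and stress factors (25), coagulation (24), cell cycle (37), cytokine feedback (15), unfolded protein response (19) and androgen targets (16), no gene is a member. Genes with obstruction/vehicle at least 1 above sham/vehicle on the processed ratio numbered 16, 12, 13, 13, 3, 7, 2 and 4 in the same order. Few genes of the cell cycle, unfolded protein response and androgen lists could thus be members. In hypoxia and glycolysis 23 genes were lower with Eviprostat, and the list's median difference from sham/vehicle was 1.24 without and -0.03 with it. Lower and higher genes numbered 18 and 0 in lysosome and phagocytosis, 17 and 0 in immediate early and stress factors, 11 and 2 in coagulation, 23 and 0 in cell cycle, 9 and 0 in cytokine feedback, 2 and 6 in the unfolded protein response and 4 and 6 among androgen targets. Of 23 metalloproteinases and inhibitors 11 were lower and 1 higher, of 25 genes of complement and the acute phase 18 and 1, of 35 of cytoskeleton and adhesion 25 and 1, of 16 of matrix crosslinking 12 and 0, of 24 NRF2 targets 7 and 0, of 28 growth factors 10 and 2, and of 23 apoptosis and regression genes 9 and 1, all by limma at adjusted p under 0.05, where 11.7% of all probes were lower and 7.2% higher.

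**Figure D4:**
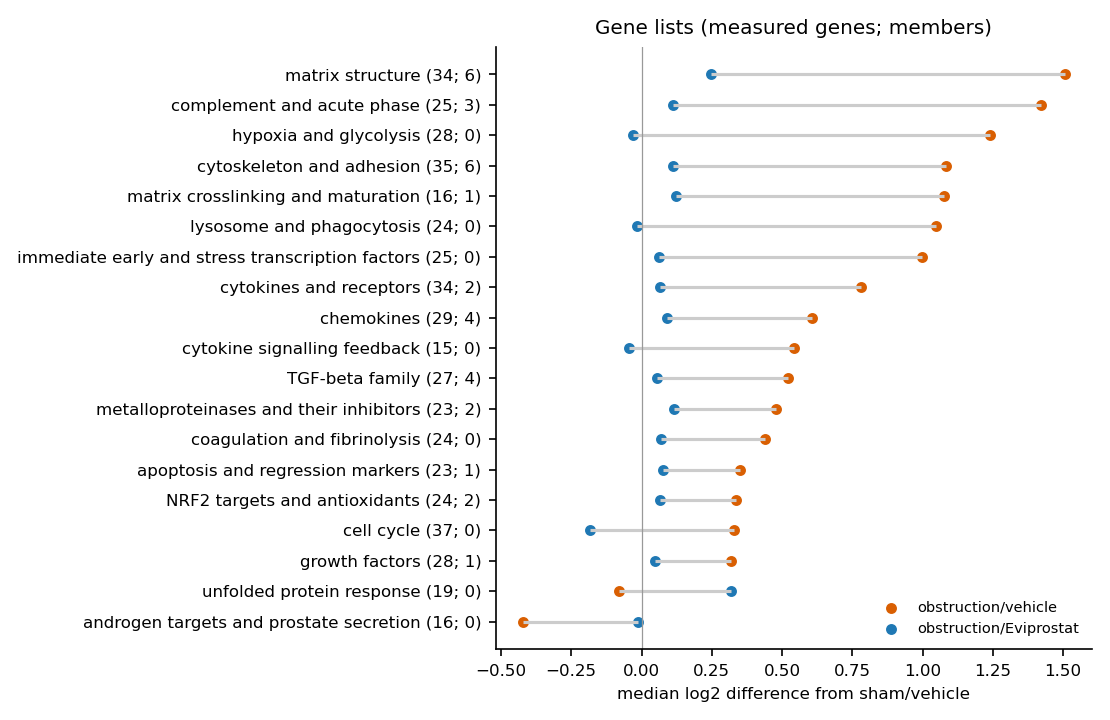
Median log2 difference from sham/vehicle over the measured genes of 19 gene lists, with obstruction/vehicle in orange and obstruction/Eviprostat in blue, joined by a grey line. Parentheses give the measured genes and then the members among them. In most lists the blue point is close to 0. It is at 0.25 in matrix structure, after 1.51, and at 0.32 in the unfolded protein response, after -0.079. With sham/Eviprostat, which is not drawn, the medians of these lists were 0.23 and 0.29.

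Markers of some cell types differed between the groups too, given as Cy5 levels after quantile normalization. Sums for 14 T and NK cell markers overlapped, at 5419 to 7713 in sham/vehicle, 5757 to 7592 in obstruction/vehicle and 5158 to 7154 in obstruction/Eviprostat. The summed Cy5 level of 17 macrophage markers, 3 of them members, was 18332 to 21443 over the sham/vehicle arrays, 267821 to 322641 with obstruction/vehicle and 26194 to 27164 with obstruction/Eviprostat. The sum for 13 neutrophil markers was 2062 to 2334, 98019 to 109454 and 2112 to 2323 in the same order. The treated arrays lay above the sham/vehicle arrays for macrophage markers and overlapped them for neutrophil markers. The members among the macrophage markers were chosen to lie above sham/vehicle with Eviprostat, and no neutrophil marker is a member. A sum without the members was not taken, so the rule may have set part of this contrast. Fibroblast markers (9 measured, the member S100a4 among them) summed to 17567 to 20952, 92215 to 114806 and 24605 to 33234, but also to 24866 to 33032 with sham/Eviprostat.

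Genes of the seminal vesicle and coagulating gland, which lie against the prostate, differed between groups by as much as the members. The 9 measured gland genes summed to 507010 to 632859 in sham/vehicle and 1370326 to 1398275 in sham/Eviprostat. They summed to 2213604 to 2230401 in obstruction/vehicle and 517540 to 557257 in obstruction/Eviprostat. Treated obstruction so overlapped sham/vehicle while sham/Eviprostat did not. Svs5 lay 8.05 above sham/vehicle in untreated and 1.64 in treated obstruction. Urothelial markers (7 measured) summed to 2450 to 3713, 3484 to 4731, 40016 to 54372 and 3075 to 4337 in the same order, and nerve and Schwann cell markers (15 measured) to 4509 to 4826, 10678 to 10869, 19561 to 20366 and 8656 to 9153. The 10 luminal markers summed to 467415 to 634489, 577479 to 644892, 175342 to 358886 and 545570 to 669939. Skeletal muscle markers (14 measured) summed to 105582 to 143118, 239111 to 298282, 70480 to 89183 and 74261 to 83503, and were highest with sham/Eviprostat. The part of these cell types in the members' values was not tested.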

How the data were processed

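Messenger RNA of pooled rat prostate was measured on 12 two-colour arrays. Per the file headers, the authors deposited spot and background intensity of both channels as written by Agilent Feature Extraction, and the same version, 9.5.1.1, is in the submitters' processing notes. Processed signals and the deposited log10 ratio of red over green come from the same software, and the series table equals that log10 ratio at all 45018 spots of each array, with column medians from -0.0045 to 0. That ratio is 0 where the software used substitute signals. Members were chosen on log2 ratios of the processed signals. For tests, normexp (offset 50) and loess were applied in limma 3.58.1 under R 4.3.3, with 36083 of 41012 probes kept (Cy5 well above background on at least 3 arrays), 1 mean per group, lmFit, eBayes and Benjamini-Hochberg adjustment. Spots darker than their own local background in either channel, 0 to 16 an array, were left out of the normexp fit. This was decided after the data and the counts of calls under several settings had been seen, because with all spots the fitted Cy5 background mean of obstruction/vehicle replicate 2 was -510, against 7.85 without those spots. Control and outlier spots had no weight, and saturated spots were kept (no member was saturated).

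Gene symbols were updated through RefSeq accessions and symbols of assembly GRCr8, used for names and promoters, and of 41012 probes 10811 were named by accession. Array positions are rn3, per the file headers. Replicate numbers mark slides, so they pair the samples: deviations from group means correlated at 0.389 to 0.815 in all 18 same-numbered pairs. In simulated data on 35994 probes, 89% of changes of 1 and 99% of changes of 2 (log2) were recovered between the obstructed groups, with 16 false calls. The simulated arrays had independent noise without a slide effect, and only 200 probes were changed. These rates check the code and are not error rates of the real data. The members, gene lists and roles were chosen with earlier results of these data known. Genes named are the 15 members highest above sham/vehicle with Eviprostat, up to 10 called members in each direction by p, those next to the threshold and members in a list, and for lists up to 3 others by size of rise. B4galt1 and Kng1 were named after their values were seen. A member that this rule names and a marker gene are not reported here. No test was read from comparisons that the rule used, but the difference between the obstructed groups, for which calls are given, shares its arrays with them. Figures used matplotlib 3.10.9.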

Additional observations from a re-analysis of the deposited data

Results flagged for a closer look

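Eviprostat differences of opposite sign on all 3 slides, one way in obstructed and the other way in sham rats, were seen in 39 of the 91 members. The share of all probes with this pattern was not counted, so the number cannot be read as a trait of the members. With 82 members lower on all 3 slides in obstructed rats, small positive sham differences were enough. Some were close to 0 on a slide, such as 0.0034 for Timp1, 0.0047 for Mmp23 and 0.0053 for Clca5. The difference between the 2 effects was not tested, and the rule had limited the sham difference. Among the named members, sham/Eviprostat lay above sham/vehicle on every slide, and obstruction/Eviprostat below obstruction/vehicle, for Bgn (0.53 in sham rats, log2), Anxa2 (0.43), Cilp (0.37), Lgals1 (0.35), Emp1 (0.33), Ccn2 (0.31), S100a4 (0.29), Thbs2 (0.18), Gpx3 (0.18), Cfd (0.15), Fcgr2b (0.14), Ccl6 (0.14), Cxcl2 (0.14), Col8a1 (0.13), Clca5 (0.12), C1qc (0.12), Ccl2 (0.11), Il1rn (0.10), Mmp23 (0.078) and Timp1 (0.042). A2m went the other way, at -0.27 in sham rats and 0.33 in obstructed rats.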

How the results depend on the processing

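The number of probes called between the obstructed groups (6831) was 13493 with the scanner's processed ratio, 2525 with median centring, 13182 with the replicate block, 15385 with slides 2 and 3 alone and 3540 with all spots in the normexp fit, and 5031 to 7498 when each array was left out. The number of members called (71) was 41 with all spots in the normexp fit and 38 of 49 among the members that also meet the rule after normexp and loess, both added after seeing the data, and 66 to 75 when each array was left out. For the comparisons that the rule used, in the order processed ratio, median centring, replicate block, slides 2 and 3 alone, all spots and each array left out, obstruction/vehicle against sham/vehicle (7718) gave 14415, 3041, 14073, 16439, 4192 and 5976 to 8408, and obstruction/Eviprostat against sham/vehicle (256) gave 1959, 40, 2699, 3904, 106 and 117 to 416. In the same order without all spots, sham/Eviprostat against sham/vehicle (800) gave 3436, 167, 3846, 5953 and 431 to 1227, with 490 from Cy5 alone and 412 from the 6 arrays compared, and obstruction/Eviprostat against sham/Eviprostat (1140) gave 4325, 246, 4987, 7593 and 556 to 1675, with 626 from Cy5 alone. Counts moved by over 1.5 times on leaving out replicates 2 or 3 of sham/vehicle (138 and 146), replicate 1 of obstruction/vehicle (416) or replicates 1, 2 or 3 of obstruction/Eviprostat (164, 142 and 117) for obstruction/Eviprostat against sham/vehicle. They did so on leaving out replicates 2 or 3 of sham/vehicle (442 and 440) or of sham/Eviprostat (431 and 455) or replicate 1 of obstruction/vehicle (1227) for sham/Eviprostat against sham/vehicle, and on leaving out replicates 2 or 3 of sham/Eviprostat (614 and 638) or of obstruction/Eviprostat (587 and 556) for obstruction/Eviprostat against sham/Eviprostat. The cause of these shifts was not tested.

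The number of members (91) was 58 on the ratio after normexp and loess (49 of them shared), 51 with a threshold of 1 for obstruction/Eviprostat, 57 with sham/Eviprostat within 0.3, 88 with the brightest Cy3 probe, 96 after median centring, and 84 to 108 when each array was left out. Of the values of named members between the obstructed groups, 934 kept direction and side of the threshold, 41 lost and 21 gained a call, and 4 changed direction without passing on either side. The last were Tnnt2 (0.034) at -0.14 with slides 2 and 3 alone, -0.19 without obstruction/vehicle replicate 1 and -0.00042 without obstruction/Eviprostat replicate 2 (-0.19 to 0.19 when each array was left out), and S100a10 (-0.15) at 0.012 with median centring. The replicate block added calls for 12 members and changed no other member's call. The number of arrays limits the precision, and dim probes are compressed by the offset.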
